A study of Homo sapiens with 18 samples.

Results

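Androgen receptor target genes were followed in C4-2B cells, a castration-resistant human prostate cancer line that derives from LNCaP. The list held 36 genes known to respond to androgen, chosen by name, with the kallikreins and the lineage transcription factors kept apart. It was chosen with earlier results of these data known. The shares of targets called below, also by role, are therefore not support from an independent list. All 36 were present among the 26475 genes of the deposited FPKM tables and in both count tables, and 35 had enough counts to be tested. HPGD, the enzyme that breaks down prostaglandins, had at most 8 counts in any library and was not tested.

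The study asked how VIC-1911, an inhibitor of the mitotic kinase AURKA, changes gene expression in prostate cancer cells, alone and together with olaparib, an inhibitor of the DNA repair enzyme PARP. There were 18 poly(A) RNA libraries of wild-type C4-2B cells in 6 groups of 3. After 2 days the groups were DMSO vehicle and 0.1 µM VIC-1911. After 7 days they were vehicle, 0.1 µM VIC-1911, 1 µM olaparib, and both drugs at these doses (the combination). All groups were grown in RPMI with fetal bovine serum, the labels name no added or withdrawn androgen, and all values come from this single cell line. The labels do not say whether the 3 libraries of a group came from separate cultures, so the p-values measure the spread between these libraries, which may be technical. At 7 days the library numbers of vehicle and VIC-1911 follow each other, and those of olaparib and the combination form another run. Run and drug therefore cannot be told apart where olaparib or the combination is compared with vehicle or with VIC-1911. VIC-1911 against vehicle and combination against olaparib each lie within a run.

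The androgen receptor is a nuclear receptor that waits in the cytoplasm in a complex with HSP90 and immunophilin cochaperones such as FKBP4 and FKBP5. Bound to androgen it enters the nucleus, pairs, and binds response elements built on an inverted repeat of the hexamer AGAACA, mostly in enhancers opened by FOXA1. Its targets in the prostate include secreted proteins of the seminal fluid, transporters, metabolic enzymes, and feedback genes such as FKBP5 and PMEPA1 that act back on receptor or growth factor signaling.

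RNA-Seq counts per library ranged from 3245273 to 7184420 at 2 days and from 4967931 to 19684208 at 7 days. At 2 days the vehicle libraries held 3245273 to 4545256 counts and the VIC-1911 libraries 5107326 to 7184420, without overlap. Depth was scaled for in the tests, but depth and drug cannot be told apart at 2 days. The 36 genes held 0.699% to 0.880% of the counts at 2 days and 0.909% to 1.04% at 7 days. Replicates differed by more than sampling noise in every group (chi-square per degree of freedom from 1.26 to 5.52), so no library was counted as a copy of another. Levels are given as FPKM, fragment counts scaled for both transcript length and library depth, so that levels of different genes can be compared. Differences are log2 fold changes with their standard errors from edgeR's quasi-likelihood test on the counts, and a gene was called at a Benjamini-Hochberg adjusted p under 0.05 over all genes tested. The 9 luminal prostate markers examined, among them KRT8, KRT18 and FOLH1, were each at a mean of at least 1 FPKM in every group. Of the 6 basal markers, ITGA6 had means of 4.01 to 10.5 FPKM and KRT14 of 0.105 to 2.61 FPKM, DST stayed under 1 FPKM, and the defining markers KRT5 and TP63 were at or near 0. Of the 8 neuroendocrine markers, ENO2 had means of 2.01 to 3.76 FPKM and SYP of 0.52 to 1.23 FPKM, while NEUROD1 and INSM1 were at or near 0. Of the 9 stromal, endothelial and blood markers, COL1A1 had means of 1.19 to 2.07 FPKM and VWF of 0.281 to 0.693 FPKM, while DCN and HBB were listed at 0. The summed FPKM of all 4 lists differed without overlap between the groups at 2 days. At 2 days the luminal sum ranged from 1003 to 1039 with vehicle and from 1055 to 1071 with VIC-1911, the basal sum from 6.38 to 7.46 and from 5.19 to 5.68, the neuroendocrine sum from 3.89 to 5.21 and from 2.35 to 3.07, and the stromal, endothelial and blood sum from 2.22 to 2.66 and from 1.58 to 1.87. At 7 days the luminal sum ranged from 1310 to 1327 with vehicle, 1153 to 1174 with VIC-1911, 1088 to 1134 with olaparib and 1058 to 1096 with the combination. The 7-day basal sum ranged from 12.4 to 13.3 with vehicle and between 6.77 and 7.84 with the drugs, and KRT14 was called lower with VIC-1911 (-0.58) and higher with olaparib (0.58) and the combination (0.80). The 7-day neuroendocrine sum ranged from 3.88 to 4.89 with vehicle and between 2.56 and 3.73 with the drugs, and that of the stromal, endothelial and blood list from 2.20 to 2.72 and between 2.14 and 2.66, with overlap. Their part in the results below was not tested, and in bulk RNA fewer cells of a type and less RNA per cell cannot be told apart.

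Promoters were read for 5 of the targets because they stand for the patterns described below: SLC45A3 and MERTK were lower than vehicle after every 7-day treatment, FKBP5 and MAF were higher, and PMEPA1 was lower with VIC-1911 and higher with the combination. Each is the strand of the gene from 5′ to 3′, up to the RefSeq transcript start on GRCh38.p14. Capitals mark a match to the hexamer AGAACA or its reverse complement TGTTCT. For FKBP5 and PMEPA1 only a window that held such a match was printed, so its presence there was fixed by this choice. The windows of SLC45A3, MERTK and MAF were printed whether or not they held it.
SLC45A3: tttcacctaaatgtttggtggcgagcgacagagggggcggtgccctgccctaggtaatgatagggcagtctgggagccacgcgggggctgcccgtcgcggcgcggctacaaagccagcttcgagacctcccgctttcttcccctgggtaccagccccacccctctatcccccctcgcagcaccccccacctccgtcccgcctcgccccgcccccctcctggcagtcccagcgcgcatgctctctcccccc
MERTK: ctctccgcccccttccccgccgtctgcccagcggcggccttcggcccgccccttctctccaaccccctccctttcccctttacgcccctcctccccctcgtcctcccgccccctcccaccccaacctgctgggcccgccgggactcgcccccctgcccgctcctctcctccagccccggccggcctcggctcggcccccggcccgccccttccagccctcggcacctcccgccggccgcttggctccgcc
FKBP5: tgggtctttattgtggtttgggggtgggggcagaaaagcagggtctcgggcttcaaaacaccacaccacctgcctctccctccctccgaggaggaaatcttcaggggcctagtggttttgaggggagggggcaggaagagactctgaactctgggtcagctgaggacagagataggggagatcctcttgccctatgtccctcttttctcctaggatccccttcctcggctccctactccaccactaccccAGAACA
MAF: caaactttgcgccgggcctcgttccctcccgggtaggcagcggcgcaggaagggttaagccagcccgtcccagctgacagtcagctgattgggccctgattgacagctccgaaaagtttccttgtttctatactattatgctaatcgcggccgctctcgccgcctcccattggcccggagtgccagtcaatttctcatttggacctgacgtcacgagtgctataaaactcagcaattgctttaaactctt
PMEPA1: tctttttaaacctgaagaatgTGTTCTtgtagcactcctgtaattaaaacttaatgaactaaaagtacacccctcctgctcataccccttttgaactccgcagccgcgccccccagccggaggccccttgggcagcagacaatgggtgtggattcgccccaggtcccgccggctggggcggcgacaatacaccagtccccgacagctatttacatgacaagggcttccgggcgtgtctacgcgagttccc
The SLC45A3 window lies at chr1:205680510-205680759 (minus strand), that of MERTK at chr2:111898357-111898606 (plus strand), that of FKBP5 at chr6:35728578-35728833 (minus strand), that of MAF at chr16:79600738-79600987 (minus strand), and that of PMEPA1 at chr20:57710578-57710827 (minus strand). The windows of SLC45A3, MERTK, MAF and PMEPA1 hold the 250 bases before the start, and that of FKBP5 holds 256 bases, with the hexamer formed by the opening bases of the transcript. The PMEPA1 window ends at an internal start of the gene, with the hexamer 229 bases before it. SLC45A3 and MERTK, both lower, had GC contents of 69.2% and 78.8% here, and FKBP5 and MAF, both higher, of 57.0% and 54.4%. PMEPA1, lower with VIC-1911 and higher with the combination, had 55.6%. GC content was not read for the other targets or for any windows of FKBP5 and PMEPA1 without the hexamer, and a link to direction was not tested.

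Of the 36 targets, 29 had promoter windows in the RefSeq table, 65 windows in all, reaching from 250 bases before a transcript start to 50 bases after it. The hexamer, searched on both strands as AGAACA or TGTTCT, was present in 10.8% of these windows and in 14.8% of all 35116 windows of the table. Counted by gene, 6 of the 29 had a match (FKBP5, LIFR, PMEPA1, SGK1, TRPM8 and TSC22D1), against 17.5% of the 27305 genes of the table. The full inverted repeat (AGAACA, any 3 bases, then TGTTCT) was found in 0 of the 65 windows. The forkhead core TGTTTAC (or GTAAACA) was in 1.54% of the windows against 3.42% of all windows, and the GC box GGGCGG (or CCGCCC) in 41.5% against 45.0%. By gene, the forkhead core was in 1 of the 29 targets against 4.19% of all genes, and the GC box in 20 against 48.3%. For the hexamer and the GC box the targets lay below the table by window and above it by gene, so the direction depends on the unit counted. These matches describe the letters of the windows and do not show where the receptor binds.

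After 2 days VIC-1911 raised 22 androgen receptor targets, spread over all 7 roles, and lowered none by the test. The marker lists moved in the same libraries, with a luminal sum of 1003 to 1039 FPKM with vehicle and 1055 to 1071 FPKM with VIC-1911, and their part was not tested. Every VIC-1911 library of this time point was also deeper than every vehicle library, and the part of depth was not tested. Of the 35 targets tested, 22 were called higher and 0 lower, where 7.5% of the 12241 genes tested were called higher and 7.19% lower. The targets were chosen with earlier results of these data known, so this difference describes the list and is not a test of it. The median log2 fold change of the 35 was 0.30, against -0.003 over all genes tested. MAF, SGK1, ELL2 and INPP4B passed a fold of 1.5 as well, a limit that 0.825% of all genes passed upward. At an unadjusted p under 0.05, 24 targets were higher and 3 (ANKH, MERTK and SPDEF) lower, DESeq2 called 15 higher and 0 lower, and limma on FPKM called 1 lower (SPDEF). Of the 22 calls, those of LIFR, MAP7, SGK1, TMPRSS2, UAP1 and ZBTB10 were lost when 1 library was left out, with adjusted p up to 0.293, and each of the 6 libraries ended at least 1 of them. Those 6 and NDRG1 are the 7 calls that DESeq2 did not make, and 2 of the 4 calls past 1.5-fold were lost without vehicle replicate 2 or VIC-1911 replicate 2.

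After 7 days the targets split by direction under every treatment. VIC-1911 called 14 of the 35 higher and 13 lower, where 26.6% of the 14409 genes tested were higher and 25.8% lower. Olaparib called 18 higher and 12 lower, where 28.1% and 25.9% of all genes were. The combination called 17 higher and 12 lower, where 28.6% and 28% of all genes were. The shares of targets called higher lay above these backgrounds by more than the shares called lower did, but more than 1 in 2 of all genes moved in each comparison (52.4%, 54% and 56.6%), and the median log2 fold changes of the targets were 0.10, 0.16 and 0.09. The 3 comparisons share their vehicle libraries, so their values are set side by side below and not counted as separate support for each other. Past a fold of 2, VIC-1911 raised MAF and INPP4B and lowered MERTK. Olaparib raised MAF, INPP4B, FKBP5, HERC3 and STEAP4 and lowered MERTK past this limit, and the combination raised MAF, NDRG1, STEAP4, HERC3, INPP4B and FKBP5 and lowered MERTK and CAMKK2. Of all genes, 3.46% passed this limit upward and 3.43% downward with VIC-1911, 3.63% and 3.53% with olaparib, and 4.55% and 4% with the combination. Without vehicle replicate 2 the count of targets raised past 2-fold by VIC-1911 was 1, and without combination replicate 3 the count lowered past 2-fold by the combination was 1.

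Counted by whether the FPKM ranges of the groups overlapped, the VIC-1911 range lay wholly above that of vehicle for 22 targets and wholly below it for 3 at 2 days, where 14.5% and 18.4% of all genes were. At 7 days 19 targets were higher and 11 lower without overlap with VIC-1911 (33.9% and 25.4% of all genes), 17 and 12 with olaparib (31.9% and 26.9%) and 17 and 12 with the combination (30.1% and 29.1%). The combination lay apart from olaparib for 3 targets upward and 6 downward (11.1% and 16.2% of all genes), and from VIC-1911 for 8 and 11 (20.7% and 29.8%). Against vehicle, TMPRSS2 and ZBTB10 at 2 days, ABCC4 and TRPM8 with VIC-1911 at 7 days, SGK1 with olaparib and TRPM8 with the combination were called although these ranges overlapped. The same held for FKBP5, MAF and SPDEF in the combination against olaparib, and for ADAMTS1 and TSC22D1 in the combination against VIC-1911.

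**Figure D1:**
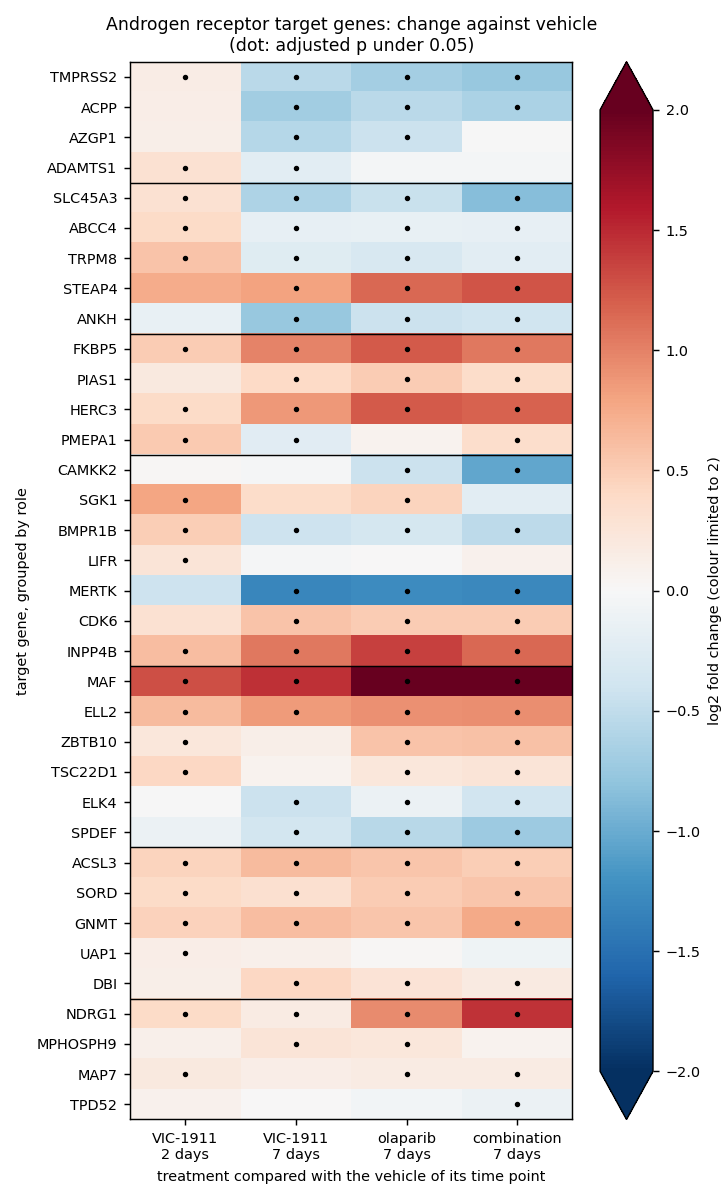
Log2 fold changes of the 35 tested targets (rows, grouped by role) against the vehicle of the same time point (columns), with colour limited at 2 in either direction and a dot where the adjusted p was under 0.05. The 2-day column holds 22 dots, all on higher values, and the 7-day columns hold both directions.

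The secreted and surface enzymes, which include the classical prostate products, were the targets most uniformly lower after 7 days of VIC-1911. All 4 of them were called lower with VIC-1911, 3 with olaparib and 2 with the combination, while at 2 days 2 were called higher. Of all genes, 25.8%, 25.9% and 28% were lower in the 3 comparisons at 7 days, and 7.5% higher at 2 days. TMPRSS2 (chr21:41464300-41531116, minus strand), the transmembrane serine protease whose promoter drives ERG fusions in prostate cancer, measured 178, 183 and 197 FPKM with vehicle and 195, 197 and 211 FPKM with VIC-1911 at 2 days. TMPRSS2 at 7 days measured 432, 443 and 456 FPKM with vehicle, 323, 327 and 289.7 with VIC-1911, 264, 285 and 289.9 with olaparib and 261, 271 and 254 with the combination. The 2-day groups overlapped, whereas every treated 7-day library lay below every vehicle library. The 2-day log2 fold change was 0.14 ± 0.05 (edgeR's quasi-likelihood test, adjusted p = 0.029), and the 7-day values were -0.55 ± 0.05 with VIC-1911 (adjusted p = 4e-11), -0.68 ± 0.05 with olaparib (adjusted p = 3e-13) and -0.76 ± 0.05 with the combination (adjusted p = 1.7e-14). TMPRSS2 shares 562 exonic bases with MX1 on the opposite strand, and the sources used here do not say whether counting used strand.

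AZGP1, the secreted zinc-binding glycoprotein of seminal fluid, measured 133, 147 and 148 FPKM with vehicle and 148, 162 and 148 FPKM with VIC-1911 at 2 days. AZGP1 at 7 days measured 156, 160.3 and 163 FPKM with vehicle, 114, 108 and 113 with VIC-1911, 117, 129 and 113 with olaparib and 159, 156 and 162 with the combination. It was lower with each drug alone, without overlap, and the combination libraries lay within the vehicle range. The log2 fold changes were -0.56 ± 0.05 with VIC-1911 (adjusted p = 2.8e-11), -0.43 ± 0.05 with olaparib (adjusted p = 6.5e-09) and -0.01 ± 0.05 with the combination (95% interval -0.10 to 0.08, adjusted p = 0.9), by edgeR's quasi-likelihood test. ADAMTS1, a secreted metalloproteinase, measured 102, 93.0 and 108 FPKM with vehicle and 124, 121 and 127 FPKM with VIC-1911 at 2 days. ADAMTS1 at 7 days measured 190.2, 175 and 191 FPKM with vehicle, 173, 159.8 and 163 with VIC-1911, 188, 179.8 and 179 with olaparib and 171, 189 and 179 with the combination. Only the VIC-1911 groups stood apart from their vehicles at both times, above it at 2 days (0.30 ± 0.05, adjusted p = 1.3e-05) and below it at 7 days (-0.21 ± 0.05, adjusted p = 0.00025). ACPP, prostatic acid phosphatase, had 7-day means of 7.76 ± 0.242 FPKM (SD, n = 3) with vehicle and 4.94 ± 0.401, 5.25 ± 0.63 and 5.02 ± 0.522 FPKM with VIC-1911, olaparib and the combination, and was called lower in all 3.

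Among the 5 transporters and channels, 4 were called lower and STEAP4 higher in each 7-day comparison with vehicle, while at 2 days SLC45A3, ABCC4 and TRPM8 were called higher. Of all genes, between 25.8% and 28% were lower at 7 days and 7.5% higher at 2 days. SLC45A3 (chr1:205657851-205680509, minus strand), the prostate membrane protein known as prostein, measured 47.8, 50.2 and 50.5 FPKM with vehicle and 55.8, 63.1 and 57.9 FPKM with VIC-1911 at 2 days. SLC45A3 at 7 days measured 94.99, 101 and 96.7 FPKM with vehicle, 66.1, 66.6 and 64.9 with VIC-1911, 75.1, 77.6 and 66.2 with olaparib and 55.0, 57.7 and 50.2 with the combination. Its groups did not overlap with vehicle at either time, with opposite directions at 2 and 7 days. The log2 fold changes were 0.30 ± 0.05 at 2 days (edgeR's quasi-likelihood test, adjusted p = 7.5e-05) and, at 7 days, -0.61 ± 0.05 with VIC-1911 (adjusted p = 4.5e-11), -0.44 ± 0.05 with olaparib (adjusted p = 3.2e-08) and -0.85 ± 0.05 with the combination (adjusted p = 2.3e-14). Its GC-rich promoter, printed above, held no match to the hexamer.

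ANKH, which exports pyrophosphate and ATP, measured 7.65, 7.83 and 8.76 FPKM with vehicle and 7.29, 7.02 and 7.34 FPKM with VIC-1911 at 2 days. ANKH at 7 days measured 12.8, 13.5 and 12.7 FPKM with vehicle, 8.24, 8.34 and 7.24 with VIC-1911, 10.2, 9.84 and 9.45 with olaparib and 9.48, 11.0 and 9.33 with the combination. Every treated 7-day library was below every vehicle library, with differences of -0.76 ± 0.06, -0.43 ± 0.06 and -0.40 ± 0.06 on the log2 scale for VIC-1911, olaparib and the combination (edgeR's quasi-likelihood test, adjusted p = 1.2e-11, 5.9e-07 and 1.4e-06). TRPM8, the cold-sensing cation channel of prostate epithelium, measured 18.5, 17.9 and 21.6 FPKM with vehicle and 29.2, 27.9 and 29.3 FPKM with VIC-1911 at 2 days. TRPM8 at 7 days measured 81.7, 64.3 and 78.1 FPKM with vehicle, 71.1, 62.2 and 62.1 with VIC-1911, 62.3, 56.6 and 63.6 with olaparib and 65.9, 61.6 and 65.3 with the combination. The 2-day groups were far apart (0.57 ± 0.06, adjusted p = 1.7e-09), but at 7 days vehicle replicate 2 lay among the VIC-1911 and combination libraries. Its 7-day log2 fold changes with these were -0.24 ± 0.06 (adjusted p = 0.0021, up to 0.068 with limma on FPKM) and -0.22 ± 0.06 (adjusted p = 0.0044).

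STEAP4, a metalloreductase, was the one transporter-group gene that went up after 7 days, from a very low level. It measured 0.188, 0.132 and 0.358 FPKM with vehicle and 0.479, 0.422 and 0.49 FPKM with VIC-1911 at 2 days, and although these did not overlap, the log2 fold change of 0.74 ± 0.39 did not pass the test (adjusted p = 0.22). STEAP4 at 7 days measured 0.217, 0.222 and 0.174 FPKM with vehicle, 0.277, 0.572 and 0.296 with VIC-1911, 0.467, 0.464 and 0.485 with olaparib and 0.494, 0.651 and 0.407 with the combination, on 7 to 57 counts a library. All treated libraries lay above vehicle, with log2 fold changes of 0.81 ± 0.30, 1.14 ± 0.29 and 1.26 ± 0.28 (edgeR's quasi-likelihood test, adjusted p = 0.025, 0.0012 and 0.00031). The VIC-1911 call was lost without any one of the vehicle replicates or without VIC-1911 replicate 2, with adjusted p up to 0.306. ABCC4, a nucleotide and drug efflux pump, had a 2-day log2 fold change of 0.39 ± 0.05 (adjusted p = 1.4e-07) and 7-day values of -0.16, -0.15 and -0.16, each called, of which that with VIC-1911 missed the threshold with limma and that with olaparib missed it without olaparib replicate 2 (adjusted p = 0.11).

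**Figure D2:**
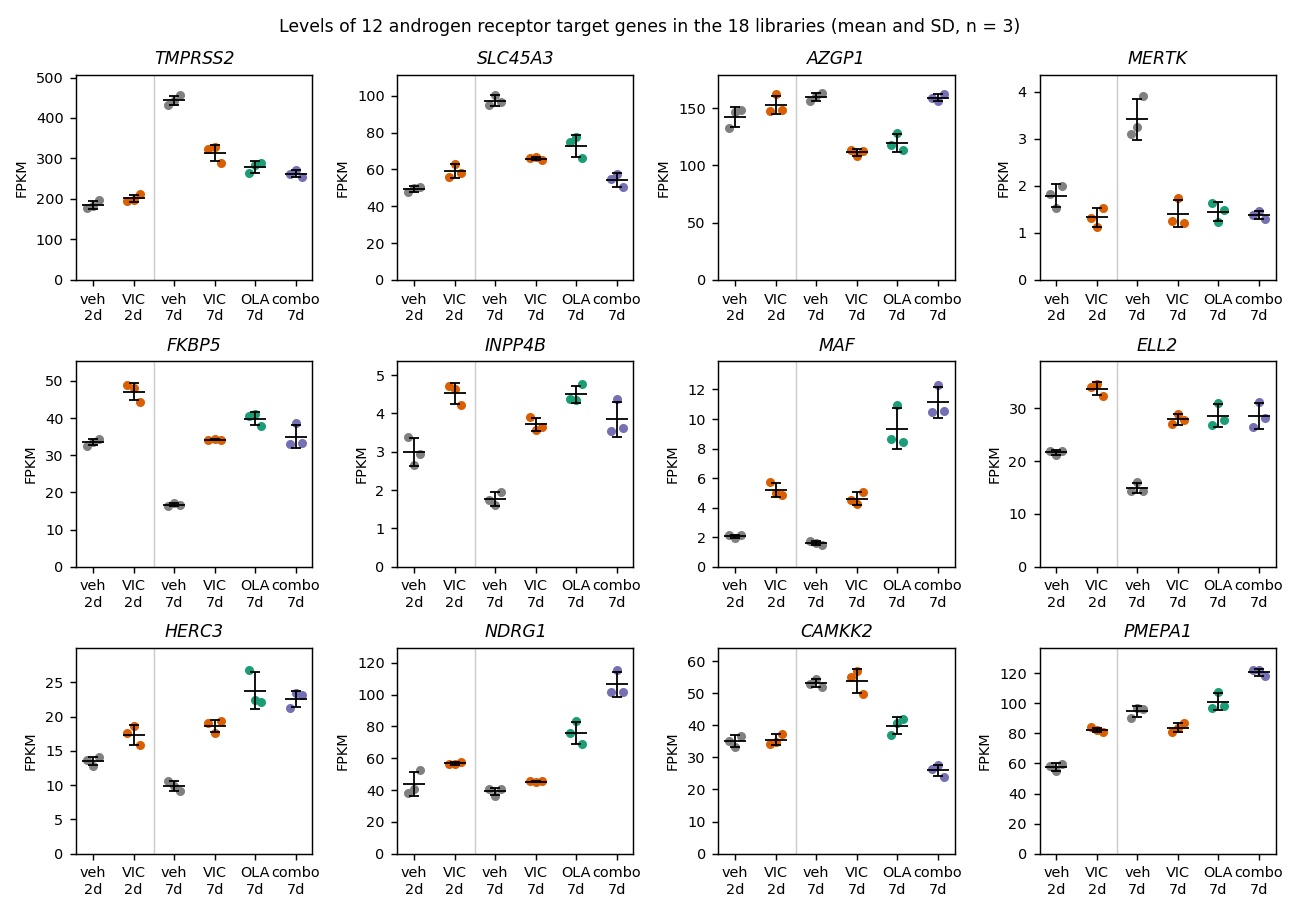
FPKM of 12 targets in each of the 18 libraries (points), with the mean and SD of 3 (bars), in 6 groups on the horizontal axis and a grey line between the time points. TMPRSS2, SLC45A3 and MERTK were highest in the 7-day vehicle libraries, FKBP5, INPP4B, MAF, ELL2 and HERC3 were lowest there, and NDRG1 was highest and CAMKK2 lowest in the combination.

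The 4 targets grouped as receptor feedback and ubiquitin genes (FKBP5, HERC3, PMEPA1 and PIAS1) mostly rose. Of the 4, VIC-1911 called 3 higher at 2 days and 3 at 7 days, olaparib 3, and the combination all 4, against 7.5%, 26.6%, 28.1% and 28.6% of all genes. FKBP5 (chr6:35573585-35728583, minus strand), the HSP90 cochaperone that is among the most used readouts of receptor activity, measured 32.6, 33.7 and 34.3 FPKM with vehicle and 48.9, 48.1 and 44.4 FPKM with VIC-1911 at 2 days. FKBP5 at 7 days measured 16.4, 17.1 and 16.7 FPKM with vehicle, 34.1, 34.3 and 34.2 with VIC-1911, 40.6, 41.0 and 37.8 with olaparib and 33.2, 38.7 and 33.3 with the combination. No treated library overlapped with vehicle, and the 7-day vehicle libraries were the lowest of all. The log2 fold change was 0.50 ± 0.05 at 2 days (edgeR's quasi-likelihood test, adjusted p = 1.4e-10), and at 7 days it was 0.98 ± 0.05 with VIC-1911 (adjusted p = 6.6e-16), 1.23 ± 0.05 with olaparib (adjusted p = 2.6e-18) and 1.06 ± 0.05 with the combination (adjusted p = 6.5e-17). FKBP5 and TMPRSS2, both standard androgen readouts, moved in opposite directions in the same 7-day libraries.

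HERC3, a HECT-type ubiquitin ligase, measured 13.7, 12.8 and 14.0 FPKM with vehicle and 17.6, 18.7 and 15.8 FPKM with VIC-1911 at 2 days. HERC3 at 7 days measured 10.6, 9.89 and 9.09 FPKM with vehicle, 19.0, 17.6 and 19.3 with VIC-1911, 26.9, 22.4 and 22.1 with olaparib and 21.2, 23.5 and 23.1 with the combination. All treated groups lay above vehicle, and those with olaparib lay above VIC-1911 alone. The log2 fold changes were 0.38 ± 0.07 at 2 days and 0.86 ± 0.07, 1.22 ± 0.07 and 1.18 ± 0.07 at 7 days (edgeR's quasi-likelihood test, adjusted p = 8.4e-05, 6.7e-12, 2.2e-15 and 2.3e-15), with the limit that 4844 of its exonic bases also lie in another locus annotated under the same name. PMEPA1 (chr20:57648392-57711536, minus strand), a membrane adaptor that limits TGF-β signaling, measured 58.6, 54.9 and 59.7 FPKM with vehicle and 84.0, 82.0 and 81.2 FPKM with VIC-1911 at 2 days. PMEPA1 at 7 days measured 90.5, 97.2 and 96.4 FPKM with vehicle, 80.6, 83.8 and 86.8 with VIC-1911, 97.2, 107 and 98.4 with olaparib and 122, 122 and 118 with the combination. It was the 1 target called in opposite directions by treatments of the same time point, lower with VIC-1911 (-0.22 ± 0.04, adjusted p = 9.9e-05) and higher with the combination (0.35 ± 0.04, adjusted p = 7.6e-08), while olaparib gave 0.08 ± 0.04 (adjusted p = 0.15). PIAS1, a SUMO ligase and coregulator, was called higher in the 3 comparisons at 7 days (0.40, 0.51 and 0.37) and had 0.19 at 2 days (adjusted p = 0.22). Of its 10647 exonic bases, 6195 overlap CALML4 and another protein-coding gene on the opposite strand, and whether counting used strand is not stated.

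Of the 7 kinases, receptors and phosphatases, 4 were called higher at 2 days (7.5% of all genes were) and, at 7 days, 2 higher and 2 lower with VIC-1911, 3 and 3 with olaparib, and 2 and 3 with the combination. At 7 days 26.6% and 25.8% of all genes were called higher and lower with VIC-1911, 28.1% and 25.9% with olaparib, and 28.6% and 28% with the combination, so the VIC-1911 counts of this role lie near the background. MERTK (chr2:111898607-112029561, plus strand), a receptor tyrosine kinase that binds GAS6, measured 1.83, 1.54 and 2.01 FPKM with vehicle and 1.33, 1.14 and 1.53 FPKM with VIC-1911 at 2 days. MERTK at 7 days measured 3.10, 3.24 and 3.91 FPKM with vehicle, 1.26, 1.73 and 1.22 with VIC-1911, 1.64, 1.23 and 1.49 with olaparib and 1.39, 1.46 and 1.29 with the combination. Every treated 7-day library lay below every vehicle library. The 7-day log2 fold changes of -1.30 ± 0.14, -1.26 ± 0.14 and -1.29 ± 0.13 were the lowest of all targets for VIC-1911, olaparib and the combination (edgeR's quasi-likelihood test, adjusted p = 3.8e-09, 5.6e-09 and 2e-09), and the 2-day value was -0.42 ± 0.21 (adjusted p = 0.18). INPP4B (chr4:142023160-142847432, minus strand), a lipid phosphatase that restrains PI3K-AKT signaling, measured 3.38, 2.66 and 2.96 FPKM with vehicle and 4.72, 4.65 and 4.21 FPKM with VIC-1911 at 2 days. INPP4B at 7 days measured 1.74, 1.60 and 1.95 FPKM with vehicle, 3.91, 3.58 and 3.66 with VIC-1911, 4.37, 4.36 and 4.76 with olaparib and 3.55, 4.38 and 3.63 with the combination. It rose without overlap everywhere, by 0.61 ± 0.13 on the log2 scale at 2 days and by 1.06 ± 0.11, 1.37 ± 0.10 and 1.14 ± 0.10 at 7 days (edgeR's quasi-likelihood test, adjusted p = 0.00061, 1.6e-09, 3.1e-12 and 1.5e-10).

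CAMKK2 (chr12:121237675-121298308, minus strand), the calcium-dependent kinase that activates AMPK, was lower with olaparib and was not called with VIC-1911 alone. CAMKK2 measured 35.2, 33.1 and 36.8 FPKM with vehicle and 34.1, 34.9 and 37.4 FPKM with VIC-1911 at 2 days. In the 7-day libraries it measured 52.8, 54.4 and 51.9 FPKM with vehicle, 55.0, 56.9 and 49.8 with VIC-1911, 37.1, 40.6 and 42.0 with olaparib and 26.3, 27.6 and 24.0 with the combination. VIC-1911 overlapped with vehicle at both times, olaparib lay below it, and the combination lay below olaparib. The log2 fold changes against vehicle were -0.03 ± 0.05 with VIC-1911 (95% interval -0.13 to 0.08, adjusted p = 0.71), -0.42 ± 0.05 with olaparib (adjusted p = 9e-08) and -1.04 ± 0.05 with the combination (adjusted p = 4.2e-16), by edgeR's quasi-likelihood test. BMPR1B, a type I receptor for bone morphogenetic proteins, measured 6.17, 6.03 and 5.85 FPKM with vehicle and 8.69, 7.66 and 8.66 FPKM with VIC-1911 at 2 days. BMPR1B at 7 days measured 16.5, 17.5 and 16.4 FPKM with vehicle, 13.1, 13.7 and 12.6 with VIC-1911, 14.3, 12.2 and 14.2 with olaparib and 11.8, 12.5 and 11.0 with the combination. It was above vehicle at 2 days (0.50 ± 0.08, adjusted p = 1.5e-05) and below it in each treated group at 7 days (-0.41 ± 0.06, -0.35 ± 0.06 and -0.52 ± 0.06, adjusted p = 1.2e-06, 1.8e-05 and 1.2e-08).

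SGK1, a stress and steroid-induced kinase, was near 1 FPKM throughout, with 11 to 134 counts a library. SGK1 measured 0.865, 0.721 and 0.975 FPKM with vehicle and 1.24, 1.69 and 1.13 FPKM with VIC-1911 at 2 days. In the 7-day libraries it measured 0.949, 0.7 and 1.06 FPKM with vehicle, 1.38, 1.19 and 0.947 with VIC-1911, 1.04, 1.12 and 1.31 with olaparib and 0.755, 0.667 and 0.811 with the combination. The 2-day groups did not overlap, while at 7 days each treated group overlapped with vehicle. Its 2-day log2 fold change was 0.80 ± 0.25 (edgeR's quasi-likelihood test, adjusted p = 0.023, lost without vehicle replicate 1 or 2 or VIC-1911 replicate 2, up to 0.139), and that with olaparib was 0.44 ± 0.18 (adjusted p = 0.038, lost without vehicle replicate 2 or olaparib replicate 3, up to 0.329). CDK6, a cell cycle kinase, was called higher at 7 days with VIC-1911 (0.57), olaparib (0.51) and the combination (0.51). LIFR, the leukemia inhibitory factor receptor, was called at 2 days (0.26) and had 7-day values between -0.03 and 0.09 that did not pass the test.

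The factors of transcription and elongation held the most induced target, MAF. Of these 6 genes, 4 were called higher at 2 days (7.5% of all genes were), 2 were higher and 2 lower with VIC-1911 at 7 days, close to the 26.6% and 25.8% of all genes, and 4 were higher and 2 lower with olaparib (28.1% and 25.9%) and with the combination (28.6% and 28%). MAF (chr16:79585843-79600737, minus strand), a bZIP transcription factor, measured 2.12, 1.93 and 2.14 FPKM with vehicle and 5.73, 4.98 and 4.86 FPKM with VIC-1911 at 2 days. MAF at 7 days measured 1.73, 1.60 and 1.4996 FPKM with vehicle, 4.53, 4.26 and 5.07 with VIC-1911, 8.68, 10.9 and 8.42 with olaparib and 10.5, 12.3 and 10.6 with the combination. Treated and vehicle groups were far apart at both times, and both olaparib-containing groups lay above VIC-1911 alone. It was 2.45-fold higher with VIC-1911 at 2 days (log2 1.30 ± 0.11, edgeR's quasi-likelihood test, adjusted p = 2.8e-11), and at 7 days 2.77-fold with VIC-1911 (1.47 ± 0.11, adjusted p = 1.1e-12), 5.72-fold with olaparib (2.52 ± 0.10, adjusted p = 5.1e-19) and 6.81-fold with the combination (2.77 ± 0.10, adjusted p = 2.1e-20). ELL2, a subunit of the elongation complex that frees paused RNA polymerase, measured 21.9, 21.2 and 21.9 FPKM with vehicle and 34.1, 34.7 and 32.3 FPKM with VIC-1911 at 2 days. ELL2 at 7 days measured 14.4, 16.0 and 14.3 FPKM with vehicle, 27.0, 29.0 and 27.7 with VIC-1911, 26.9, 31.1 and 27.9 with olaparib and 26.4, 31.1 and 28.2 with the combination. The 3 treated groups of 7 days overlapped with each other and all lay above vehicle, with log2 fold changes of 0.85 ± 0.06, 0.92 ± 0.06 and 0.92 ± 0.06, and the 2-day value was 0.63 ± 0.05 (edgeR's quasi-likelihood test, adjusted p = 7.2e-13, 1.2e-13, 6.6e-14 and 6.9e-12).

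The ETS factors of this role went the other way. SPDEF, an ETS factor of secretory prostate epithelium, had 7-day means of 100.2 ± 5.07 FPKM (SD, n = 3) with vehicle, 80.2 ± 2.54 with VIC-1911, 68.7 ± 5.85 with olaparib and 60.8 ± 4.15 with the combination, and was called lower in all 3 comparisons (-0.37, -0.56 and -0.73). ELK4, the partner of SLC45A3 in a known readthrough transcript, had 7-day log2 fold changes of -0.43, -0.12 and -0.39, of which the olaparib call (adjusted p = 0.045) was lost without vehicle replicate 2 or any one of the olaparib replicates, up to 0.2. ZBTB10 was higher by 0.58 with olaparib and 0.58 with the combination and had 0.12 with VIC-1911 (adjusted p = 0.051). TSC22D1 was called at 2 days (0.42) and at 7 days with olaparib (0.23) and the combination (0.25).

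Most of the metabolic enzymes rose in every comparison with vehicle. Of the 5 that could be tested, 4 were called higher and 0 lower in each of the 4 comparisons with vehicle, where the called gene that differed was DBI at 7 days in place of UAP1 at 2 days. Of all genes, 7.5% were higher at 2 days and 26.6%, 28.1% and 28.6% at 7 days. The log2 fold changes of the 5 were positive in these comparisons except for UAP1 with the combination (-0.08, adjusted p = 0.12). ACSL3, which activates long-chain fatty acids, measured 123, 118 and 124 FPKM with vehicle and 169, 169 and 158 FPKM with VIC-1911 at 2 days. ACSL3 at 7 days measured 72.7, 74.4 and 77.2 FPKM with vehicle, 121, 115 and 123 with VIC-1911, 114, 115 and 106 with olaparib and 104, 112 and 99.8 with the combination. No treated library overlapped with vehicle, and the log2 fold changes were 0.44 ± 0.04 at 2 days and 0.63 ± 0.05, 0.56 ± 0.05 and 0.49 ± 0.05 at 7 days (edgeR's quasi-likelihood test, adjusted p = 7e-10, 1.8e-12, 2.5e-11 and 2.6e-10). SORD, sorbitol dehydrogenase, measured 229, 221 and 232 FPKM with vehicle and 286, 302 and 287 FPKM with VIC-1911 at 2 days. SORD at 7 days measured 188, 185 and 184 FPKM with vehicle, 234, 236 and 246 with VIC-1911, 264, 277 and 261 with olaparib and 273, 284 and 266 with the combination. It rose without overlap in each treated group, by 0.38 ± 0.04 at 2 days and 0.32 ± 0.04, 0.51 ± 0.04 and 0.56 ± 0.04 at 7 days (edgeR's quasi-likelihood test, adjusted p = 1.2e-08, 7.2e-08, 5.6e-12 and 4.7e-13). GNMT, which uses S-adenosylmethionine to methylate glycine, rose by 0.47 at 2 days and by 0.61, 0.55 and 0.76 at 7 days. DBI, an acyl-CoA-binding protein, rose by 0.41, 0.27 and 0.19 at 7 days, and its combination call was lost without combination replicate 1 (adjusted p = 0.091).

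Of the remaining 4 targets, NDRG1, a growth-restraining gene that hypoxia and androgen both induce, stood highest where olaparib was present. NDRG1 measured 38.3, 40.7 and 52.6 FPKM with vehicle and 56.1, 56.3 and 57.9 FPKM with VIC-1911 at 2 days. In the 7-day libraries it measured 40.4, 36.6 and 40.4 FPKM with vehicle, 45.9, 44.8 and 45.5 with VIC-1911, 75.7, 83.2 and 68.9 with olaparib and 102, 116 and 102 with the combination. The 7-day groups stood in 4 separate steps, with the combination highest. The log2 fold changes were 0.17 ± 0.06 with VIC-1911 (edgeR's quasi-likelihood test, adjusted p = 0.015, and 0.186 without vehicle replicate 2), 0.94 ± 0.06 with olaparib (adjusted p = 3.4e-14) and 1.44 ± 0.06 with the combination (adjusted p = 7.1e-19), and the 2-day value was 0.38 ± 0.06 (adjusted p = 5.4e-05, and 0.067 with DESeq2). MPHOSPH9, a centriolar protein, measured 13.3, 13.3 and 12.7 FPKM with vehicle and 13.1, 13.8 and 14.0 FPKM with VIC-1911 at 2 days. MPHOSPH9 at 7 days measured 8.37, 7.96 and 8.06 FPKM with vehicle, 9.29, 10.2 and 10.5 with VIC-1911, 9.63, 9.94 and 9.31 with olaparib and 8.23, 8.53 and 8.86 with the combination. Each drug alone lay above vehicle (0.26 ± 0.06 and 0.22 ± 0.06, adjusted p = 0.00076 and 0.0032), and the combination overlapped with it (0.07 ± 0.06, adjusted p = 0.37). MAP7, a microtubule-binding protein, was called higher at 2 days (0.20), with olaparib (0.16) and with the combination (0.17). The olaparib call of MAP7 was lost without vehicle replicate 2 or 3 or olaparib replicate 1, with adjusted p up to 0.0776. TPD52, a vesicle trafficking protein amplified in prostate cancer, was called in 1 comparison with vehicle, lower with the combination (-0.12), a call lost without combination replicate 1 (adjusted p = 0.0531).

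The VIC-1911 effect at 7 days was set against that at 2 days in one fit of the 12 vehicle and VIC-1911 libraries, each effect being taken against the vehicle of its own time point. Of the 35 targets, 16 were called lower and 5 higher at 7 days relative to 2 days, where 14.2% and 14.6% of the 13828 genes tested were. Among the secreted enzymes all 4 had a lower effect at 7 days, from -0.84 for ACPP to -0.53 for ADAMTS1, as did 4 of the 5 transporters, from -0.93 for SLC45A3 to -0.57 for ABCC4. BMPR1B (-0.92 ± 0.09, edgeR's quasi-likelihood test, adjusted p = 5.1e-11), MERTK (-0.89) and PMEPA1 (-0.77 ± 0.06, adjusted p = 9.1e-14) also had a lower effect at 7 days. The genes with a higher effect at 7 days were FKBP5 (0.47 ± 0.06, edgeR's quasi-likelihood test, adjusted p = 1e-07), HERC3 (0.46), DBI (0.27), ELL2 (0.21) and ACSL3 (0.17). Without vehicle replicate 3 or VIC-1911 replicate 3 of 2 days, 3 of these 5 calls stood, the calls of ACSL3, DBI and ELL2 were each lost without at least 1 library, with adjusted p up to 0.127, and those of LIFR and NDRG1 were lost under most alternatives.

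By call, 7 targets were higher at 2 days and lower at 7 days, namely TMPRSS2, ADAMTS1, SLC45A3, ABCC4, TRPM8, PMEPA1 and BMPR1B. A further 9 were higher at both times (FKBP5, HERC3, INPP4B, MAF, ELL2, ACSL3, SORD, GNMT and NDRG1). CAMKK2 and TPD52 were called at neither time, and the other 17 were called at 1 time. The shares of all genes with these patterns were not counted, so the patterns cannot be read as particular to the targets. Across the 35 targets the 2 log2 fold changes had a Spearman rho of 0.58, and across 12236 genes a rho of 0.32. This is a description across genes, which share libraries and are not replicates. The 2 time points have separate vehicles and separate tables, and time and experiment cannot be told apart in this comparison.

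**Figure D3:**
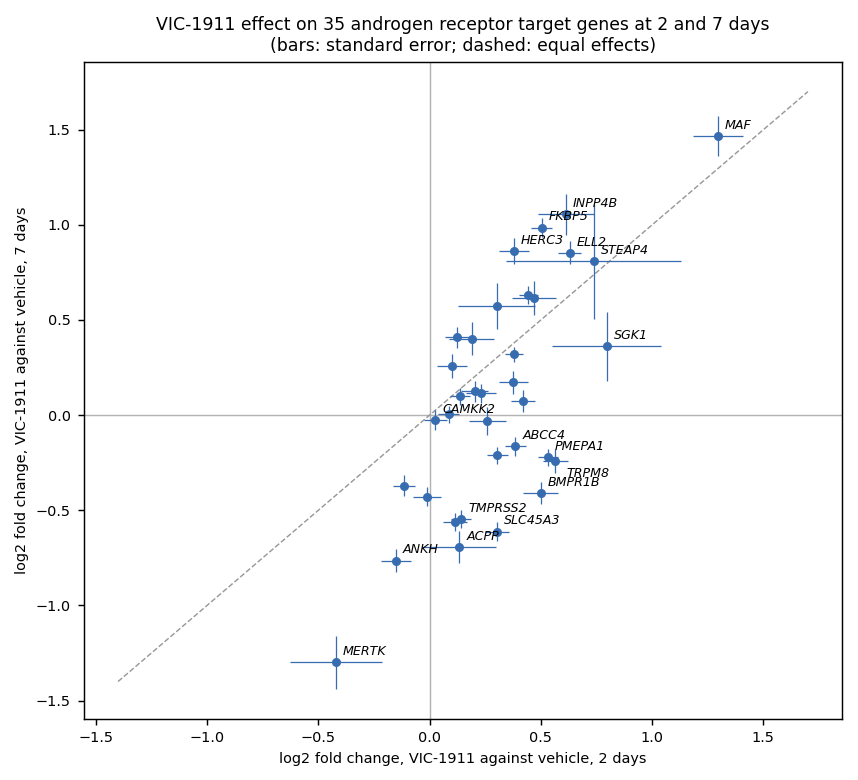
Log2 fold change of each tested target with VIC-1911 against vehicle at 2 days (horizontal) and at 7 days (vertical), with standard errors as bars and equal effects on the dashed line. The lower right quadrant holds the targets that were above vehicle at 2 days and below it at 7 days, such as SLC45A3, TRPM8 and BMPR1B, and MAF lies at the upper right end.

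Adding VIC-1911 to olaparib changed 10 targets, where 11.5% of all genes were called in either direction. The combination against olaparib called 4 of the 35 higher and 6 lower, where 4.55% and 6.95% of all genes were, and 0 passed a fold of 2 by the edgeR test in either direction (0 also at an unadjusted p, at which 5 targets were higher and 10 lower without a limit on the fold), a limit that 0.291% of all genes passed upward and 0.0902% downward. Those higher were NDRG1 (0.50 ± 0.06, adjusted p = 3.5e-07), AZGP1 (0.42 ± 0.05, adjusted p = 3.4e-07), PMEPA1 (0.27 ± 0.04, adjusted p = 8.7e-05) and MAF (0.25). Those lower were CAMKK2 (-0.61 ± 0.05, adjusted p = 1.2e-08), SLC45A3 (-0.41 ± 0.05, adjusted p = 4e-06), ELK4 (-0.26), SGK1 (-0.65), SPDEF (-0.17) and FKBP5 (-0.17). Of the 27 targets called for VIC-1911 alone at 7 days, 19 were not called here, among them MERTK (-0.02 ± 0.15, 95% interval -0.32 to 0.28), TMPRSS2 (-0.08 ± 0.05, -0.17 to 0.01) and ELL2 (0.00 ± 0.06, -0.11 to 0.12). The calls of FKBP5, MAF, SGK1 and SPDEF were each lost without 1 library, with adjusted p up to 0.151 for FKBP5, 0.278 for MAF, 0.144 for SGK1 (without olaparib replicate 3) and 0.314 for SPDEF, and each of the 6 libraries ended at least 1 of them.

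The difference between the 2 VIC-1911 effects was tested as an interaction, the effect with olaparib present less the effect alone. It was called for 27 of the 35 targets, 12 positive and 15 negative, where 21% and 22.9% of all genes tested were (44% in either direction). Past a fold of 2 it was called for 1 target upward, MERTK, and for 4 downward, limits that 4.33% and 4.16% of all genes passed. All 4 secreted enzymes had a positive interaction, led by AZGP1 (0.99 ± 0.07, edgeR's quasi-likelihood test, adjusted p = 4.4e-13), as had MERTK (1.28 ± 0.21, adjusted p = 8.9e-06), ANKH (0.80 ± 0.09, adjusted p = 1e-08), PMEPA1 (0.49) and NDRG1 (0.33). All 5 tested metabolic enzymes had a negative one, from -0.70 for ACSL3 to -0.21 for UAP1, and the most negative values were those of INPP4B (-1.29 ± 0.14, adjusted p = 1e-08), MAF (-1.22 ± 0.13, adjusted p = 8.7e-09), FKBP5 (-1.15 ± 0.07, adjusted p = 6.2e-14) and SGK1 (-1.01 ± 0.25, adjusted p = 0.0016). For 24 of the 27 targets that VIC-1911 alone had changed, the interaction was called, but the interaction contains the same VIC-1911 and vehicle libraries, so this is not separate support. For CAMKK2 the interaction was -0.59 ± 0.08 (adjusted p = 2.1e-07), with -0.03 for VIC-1911 alone and -0.61 on top of olaparib. The calls of BMPR1B, SLC45A3 and SPDEF were each lost without 1 library, with adjusted p up to 0.164, 0.149 and 0.113, the libraries being vehicle replicate 2, VIC-1911 replicates 1 and 3, each olaparib replicate and combination replicate 2. Limma on FPKM called 7 of the 12 positive ones. Across the 35 targets the Spearman rho between VIC-1911 against vehicle and combination against olaparib was 0.071 (-0.14 across 14409 genes), as a description across genes that share libraries.

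**Figure D4:**
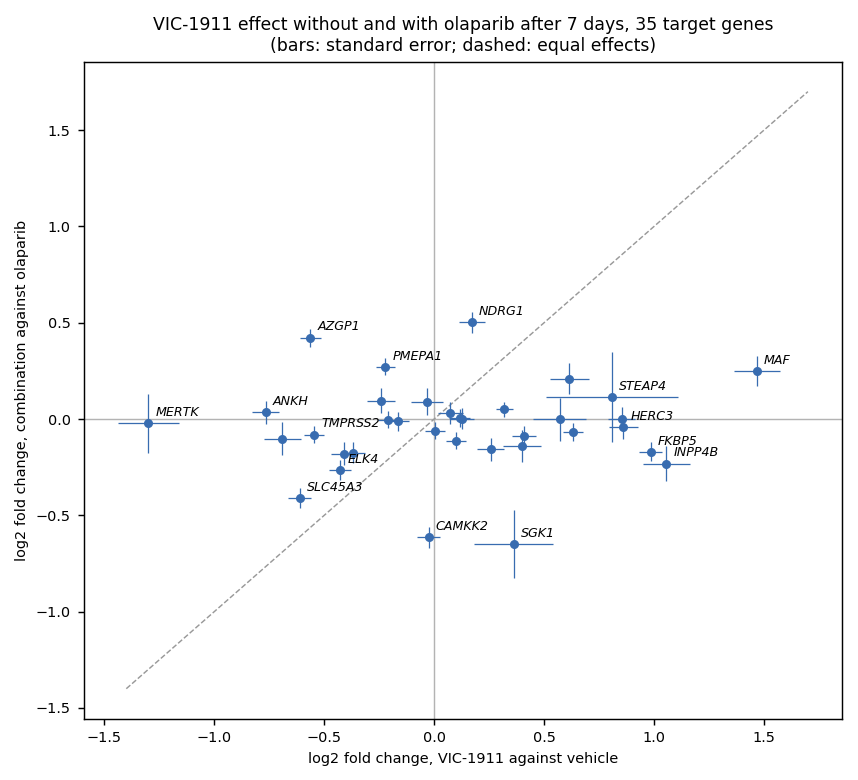
Log2 fold change with VIC-1911 against vehicle (horizontal) and with the combination against olaparib (vertical) for the 35 tested targets at 7 days, with standard errors as bars and equal effects on the dashed line. The points spread from MERTK to MAF on the horizontal axis and stay between CAMKK2 or SGK1 and NDRG1 on the vertical one, where most lie near 0.

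Olaparib on top of VIC-1911 changed 20 targets, with 10 higher and 10 lower in the combination against VIC-1911, where 20.7% and 22.2% of all genes were (42.9% in either direction), and run and drug cannot be told apart here. MAF (1.30 ± 0.08, edgeR's quasi-likelihood test, adjusted p = 1.5e-13) and NDRG1 (1.27 ± 0.06, adjusted p = 1.8e-16) were higher past 2-fold, as were 2.23% of all genes, and CAMKK2 was lower past it (-1.01 ± 0.05, adjusted p = 4.6e-15), as were 1.82%. AZGP1 (0.55), PMEPA1 (0.57), ZBTB10 (0.47) and ANKH (0.37) were also higher with the combination, and SPDEF (-0.36), SLC45A3 (-0.24) and TMPRSS2 (-0.22) lower. MERTK (0.01 ± 0.15, 95% interval -0.29 to 0.31) and FKBP5 (0.08 ± 0.05, -0.02 to 0.17) did not pass the test. The CAMKK2 value fell below 2-fold without VIC-1911 replicate 1 or 2 or combination replicate 3, and the calls of ACSL3, MPHOSPH9, SGK1, TPD52 and TSC22D1 were each lost without at least 1 library, with adjusted p up to 0.132.

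The kallikreins, secreted proteases that are the best known receptor targets and were listed apart, were lower after 7 days. All 4 tested were called lower in each 7-day comparison with vehicle (25.8%, 25.9% and 28% of all genes were), and 1 at 2 days (7.19%). KLK3, which encodes prostate-specific antigen, measured 1446, 1553 and 1569 FPKM with vehicle and 1244, 1344 and 1349 FPKM with VIC-1911 at 2 days, without overlap (log2 -0.20 ± 0.04, edgeR's quasi-likelihood test, adjusted p = 0.00097). KLK3 at 7 days measured 2668, 2697 and 2678 FPKM with vehicle, 1863, 1815 and 1746 with VIC-1911, 1628, 1663 and 1682 with olaparib and 1728, 1599 and 1684 with the combination. These were log2 fold changes of -0.61, -0.71 and -0.69 without overlap, and KLK2 gave -0.57, -0.71 and -0.78. FOXA1, the forkhead factor that opens enhancers for the receptor, was called lower in each 7-day comparison with vehicle (-0.18, -0.16 and -0.15), and HOXB13, a prostate homeobox factor, gave 0.01 (adjusted p = 0.89), -0.28 and -0.49, called with olaparib and the combination.

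Of the 7 chaperones that hold the receptor ready, 4 were called higher at 2 days (7.5% of all genes were) and 6 in each 7-day comparison with vehicle (26.6%, 28.1% and 28.6%), with 1 lower under olaparib and 1 under the combination. FKBP4 rose by 0.65, 0.49 and 0.56 and HSP90AA1 by 0.45, 0.54 and 0.64. Of 12 coactivators, 2, 4 and 3 were higher and 4, 4 and 6 lower with VIC-1911, olaparib and the combination at 7 days. Of all genes, 26.6%, 28.1% and 28.6% were higher and 25.8%, 25.9% and 28% lower. The steroid receptor coactivator NCOA1 changed by -0.41, -0.77 and -1.12 on the log2 scale. The coactivator SMARCA4 went the other way, with a mean of 30.7 FPKM with vehicle and 45.3, 43.1 and 41.3 FPKM with the treatments. Against the same backgrounds, 4 of 7 corepressors were higher in each of these comparisons and 1, 1 and 2 lower. TLE1, a Groucho corepressor, rose by 0.52, 0.92 and 1.31, while the corepressor NCOR1 went from a mean of 14.4 FPKM to 11.8, 12.5 and 11.1 FPKM. Among the 7 tested genes of androgen metabolism, 3, 2 and 2 were higher and 1 lower in each, against the same backgrounds. HSD17B11, a steroid dehydrogenase, rose by 0.99, 0.74 and 1.18. UGT2B17, which conjugates androgens for removal, had log2 fold changes of -1.56, -1.55 and -2.05, on only 2 to 28 counts a library at 7 days. The 1 tested gene of the androgen-repressed list, CAMK2N1, was lower at 7 days, by log2 fold changes of -0.94, -1.73 and -1.95, from 41.4, 40.3 and 39.9 FPKM with vehicle to 23.7, 21.1 and 20.7, 11.2, 11.5 and 13.7 and 10.5, 10.5 and 10.6 FPKM.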

How the data were processed

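Poly(A) RNA-Seq of 18 C4-2B libraries was analysed. Per the study's methods and the labels, the authors used Trimmomatic for trimming and STAR (version 2.6.0 in the submitters' processing notes) for alignment to GRCh38, and deposited raw counts per gene together with FPKM values from an in-house script. Strand use in counting is not given in the sources used here. FPKM were set against counts for targets with enough counts in every library, 30 at 2 days and 32 at 7 days. For these the 7-day FPKM follow the deposited counts, whereas the 2-day FPKM deviate from them by up to 10.5%. The deviation was not computed for targets with fewer counts, among them SGK1, STEAP4 and HPGD, and it may be larger there. HPGD had 0 counts but 0.0868 FPKM in VIC-1911 replicate 1 of 2 days. Levels below are FPKM and tests use counts.

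Each time point was fitted, over genes that reached 10 counts in 3 or more libraries, with edgeR 4.0.16 (R 4.3.3, TMM normalization, quasi-likelihood test), with Benjamini-Hochberg adjustment over all genes tested. The 7-day fit held all 4 groups, and the difference between time points came from 1 fit of 12 libraries. Scripts were tested on simulated data. Alternatives were DESeq2 1.42.0, limma 3.58.1 on log2(FPKM + 0.1) or log2(FPKM + 1), other scalings and filters, a replicate block, and each library left out. Promoter sequences are from RefSeq (GRCh38.p14) and gene positions from the GENCODE annotation. Values in every library are given for TMPRSS2, FKBP5 and SLC45A3, for targets called past a fold of 1.5 (2 days) or 2 (7 days) against vehicle, and for the target with the smallest adjusted p of each of 7 roles in each comparison with vehicle. The members and lists were chosen with earlier results of these data known. Same-numbered libraries did not deviate together (correlations from -0.0355 to 0.111), so the numbers were not taken as pairs. Some genes of the lists beside the targets are not reported here.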

Additional observations from a re-analysis of the deposited data

Results flagged for a closer look

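The VIC-1911 effect at 7 days differed with and without olaparib, by an interaction term in edgeR's quasi-likelihood test (adjusted p under 0.05), for 27 targets. On the log2 scale the effect was higher with olaparib present for TMPRSS2 (0.47), ACPP (0.59), AZGP1 (0.99), ADAMTS1 (0.21), SLC45A3 (0.2), TRPM8 (0.34), ANKH (0.8), PMEPA1 (0.49), BMPR1B (0.23), MERTK (1.28), SPDEF (0.2) and NDRG1 (0.33). It was lower for FKBP5 (-1.15), PIAS1 (-0.54), HERC3 (-0.9), CAMKK2 (-0.59), SGK1 (-1.01), CDK6 (-0.57), INPP4B (-1.29), MAF (-1.22), ELL2 (-0.85), ACSL3 (-0.7), SORD (-0.27), GNMT (-0.4), UAP1 (-0.21), DBI (-0.5) and MPHOSPH9 (-0.41). Higher and lower refer to the signed value, so either can mean a smaller effect with olaparib present. The effect alone and on top of olaparib was -0.69 and -0.10 for ACPP and 0.85 and 0.003 for ELL2. For CAMKK2 it was larger with olaparib, at -0.03 and -0.61.

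The VIC-1911 effect also differed between 7 and 2 days, each against its own vehicle, for 21 targets by the same kind of test. It was higher at 7 days for FKBP5 (0.47), HERC3 (0.46), ELL2 (0.21), ACSL3 (0.17) and DBI (0.27), and lower for TMPRSS2 (-0.7), ACPP (-0.84), AZGP1 (-0.69), ADAMTS1 (-0.53), SLC45A3 (-0.93), ABCC4 (-0.57), TRPM8 (-0.82), ANKH (-0.63), PMEPA1 (-0.77), BMPR1B (-0.92), LIFR (-0.3), MERTK (-0.89), TSC22D1 (-0.36), ELK4 (-0.43), SPDEF (-0.27) and NDRG1 (-0.22). Time and experiment cannot be told apart here, and the groups of 3 are too small for a test of single libraries.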

How the results depend on the processing

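No target changed direction while called under any alternative run. With limma on FPKM (either pseudocount) VIC-1911 at 2 days called 1 target lower (0 with edgeR), the combination against olaparib 3 lower (6 with edgeR) and the interaction 7 positive (12 with edgeR), and the time difference called 9 higher with a pseudocount of 0.1 and 8 with 1 (5 with edgeR). The cause was not tested. With 1 library left out, the targets called higher and lower ranged from 17 to 20 and 0 to 0 for VIC-1911 at 2 days, 12 to 15 and 13 to 13 at 7 days, 16 to 18 and 10 to 12 for olaparib, 16 to 17 and 11 to 12 for the combination, 3 to 5 and 4 to 8 for the combination against olaparib, 9 to 11 and 8 to 10 against VIC-1911, 9 to 14 and 15 to 15 for the interaction, and 3 to 6 and 14 to 16 for the time difference. With the replicate number as a block the calls were 22 and 0, 15 and 13, 18 and 12, 17 and 12, 4 and 7, 10 and 10, 12 and 15, and 6 and 16 in the same order, and 1 of 18 same-numbered pairs correlated above 0.1, so the numbers were not taken as pairs. Low counts limit the values of STEAP4, SGK1 and HPGD.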

Other observations

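The vehicle libraries of the 2 time points differed in their target levels, and for 23 of the 35 tested targets the mean 7-day VIC-1911 level lay nearer the 2-day vehicle than the 7-day vehicle did. The share of all genes for which this held was not counted, so it cannot be read as particular to the targets. The genes printed here were chosen after their values were seen. Mean FPKM in 2-day vehicle, 7-day vehicle and 7-day VIC-1911 were 33.5, 16.7 and 34.2 for FKBP5, 21.7, 14.9 and 27.9 for ELL2, and 122, 74.8 and 119 for ACSL3. The lower targets gave 186, 443 and 313 for TMPRSS2, 49.5, 97.4 and 65.8 for SLC45A3, 1.79, 3.42 and 1.40 for MERTK, and 8.08, 13.0 and 7.94 for ANKH. This did not hold for the other 12 targets, among them HERC3 (13.5, 9.86 and 18.6) and MAF (2.06, 1.61 and 4.62). Time and experiment cannot be told apart, the tables were made separately, and no test was run on these levels.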
